A study of Mus musculus with 18 samples.

Results

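The genes described here encode the IgA antibody of the colon, its joining and transport proteins, and proteins of the B cells and plasma cells that make it. They were *Igha*, *Ighm*, *Igkc*, *Jchain*, *Pigr*, *Mzb1*, *Cd79a* and *Ms4a1*, 8 of the 47729 genes in the count table, taken by name and not by their measured values. All 8 passed the filter on low counts, so 8 members were tested among 16937 genes.

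RNA was sequenced from mouse colon in 6 groups of 3 libraries, 18 in all, from WT mice and from *Cldn2*KO mice, which lack the tight junction protein claudin-2. Each genotype was studied without treatment (control), during recovery after colitis caused by dextran sulfate sodium (DSS), and after the carcinogen azoxymethane (AOM) given once at 10 mg/kg with 3 cycles of 2.5% DSS (AOM/DSS). The mice had a C57BL/6 background and were littermates matched for age and sex per the study's methods, and no age was given. How the *Cldn2* allele was made, and the DSS dose and days of the recovery groups, were not given in the sources used here. Nothing in the labels ties a library to an animal, so the p-values below measure the spread between these libraries.

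In the colon, plasma cells of the lamina propria secrete IgA as pairs of antibody units held together by the J chain. The polymeric immunoglobulin receptor, made by the epithelium, binds the J chain of such dimers on its basal side, carries them across the cell and releases them into the lumen. Naive B cells carry IgM and IgD on their surface, gather in lymphoid follicles of the gut wall, and switch to IgA before they become plasma cells.

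Upstream sequences are shown for the 2 genes on either side of this transport, the plasma cell gene *Jchain* and the epithelial gene *Pigr*, which were the members whose window before the gene could be shown. Each is the 250 bases before the RefSeq start (GRCm38.p6), read 5′ to 3′ on the gene's strand, chr5:88527898-88528147 on the minus strand for *Jchain* and chr1:130826434-130826683 on the plus strand for *Pigr*. Capitals mark a motif match.
Jchain: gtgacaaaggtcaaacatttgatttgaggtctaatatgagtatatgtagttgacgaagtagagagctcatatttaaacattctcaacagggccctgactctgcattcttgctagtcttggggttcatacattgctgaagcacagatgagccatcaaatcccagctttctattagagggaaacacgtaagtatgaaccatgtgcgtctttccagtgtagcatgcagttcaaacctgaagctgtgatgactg
Pigr: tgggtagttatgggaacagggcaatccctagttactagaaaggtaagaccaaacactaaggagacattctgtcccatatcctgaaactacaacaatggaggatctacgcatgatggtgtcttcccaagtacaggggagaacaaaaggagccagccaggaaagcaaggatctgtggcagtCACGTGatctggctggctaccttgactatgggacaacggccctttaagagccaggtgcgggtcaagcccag
Both strands were searched for the octamer ATGCAAAT, the E-box CACGTG, an IRF element and the ETS core GAGGAA, none of which overlapped another match. The *Pigr* window held 1 E-box, with its first base 71 bases before the start (position -71), and the *Jchain* window held none of these letters. Among 32851 mouse promoters cut in the same way, 6.02% held the E-box, 1.6% the octamer, 2.98% the IRF element and 23.3% the ETS core. The window of *Cd79a* reaches into its transcript and is not shown, and the other 5 genes are named only.

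Levels of a gene across libraries are given as CPM, its reads scaled by TMM to a common library size. Only between genes are they given as TPM, in which reads are divided by gene length. In WT controls *Igkc* had the highest level per length, 3050 ± 287 TPM, and *Pigr* stood at 3040 ± 897 TPM (SD, n = 3). The IgA heavy chain gene *Igha* stood at 738 ± 145 TPM and *Jchain* at 701 ± 133 TPM. The other members were far lower per length, with 30.3 ± 5.27 TPM for *Mzb1*, 25.9 ± 15.6 TPM for *Ighm*, 7.77 ± 5.72 TPM for *Cd79a* and 5.88 ± 4.11 TPM for *Ms4a1*. The order ran from secreted antibody and its receptor to the surface proteins of B cells, and the SDs of *Igkc* and *Pigr*, of *Igha* and *Jchain*, of *Mzb1* and *Ighm*, of *Ighm* and *Cd79a*, and of *Cd79a* and *Ms4a1* overlapped.

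The libraries held between 17.6 and 27.4 M counted reads (median 19.6 M). *Hoxb13*, a gene of the distal colon, was at most 0.502 CPM in every recovery library and 0.327 CPM in the second WT control, and at least 198 CPM in the other 11, although the study's text names distal colon as the tissue. Recovery and this regional marker differ together against most controls and cannot be told apart. *Xist*, the RNA of the inactive X chromosome in females, reached 865 to 1740 CPM in 6 libraries (numbers 2 and 3 of WT recovery, *Cldn2*KO recovery and *Cldn2*KO AOM/DSS). It never exceeded 1.16 CPM elsewhere. The AOM/DSS genotypes thus also differed in *Xist*, as did recovery from control in both genotypes and AOM/DSS from control in *Cldn2*KO. These contrasts cannot be fully told apart from it. Plasma cells and B cells are a small part of the tissue, so fewer cells of a type and less RNA per cell cannot be told apart in these bulk libraries. Across libraries the 12 immunoglobulin constant genes together ranged from 19.6 CPM (a *Cldn2*KO control) to 1680 CPM (a WT control).

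The first comparison asked how untreated *Cldn2*KO colon differed from untreated WT colon. *Igha*, the constant region of the IgA heavy chain (ENSMUSG00000095079, GRCm38 chromosome 12, 113254830 to 113260236, minus strand), measured 918, 769 and 802 CPM in WT controls. It stood at 55.8, 8.71 and 101 CPM in the 3 *Cldn2*KO controls, from 1132, 157 and 1884 reads. Every WT control lay far above every *Cldn2*KO control, and *Cldn2*KO control replicate 2 was the lowest of all 18 libraries. *Igha* was 15-fold lower in *Cldn2*KO controls (log2 fold change -3.91, SE 0.613, edgeR adjusted p 0.00582).

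*Igkc*, the constant region of the kappa light chain (ENSMUSG00000076609, chromosome 6, 70726435 to 70726966, plus strand), stood at 685, 714 and 671 CPM in WT controls. In *Cldn2*KO controls it stood at 41.8, 6.1 and 118 CPM. The groups did not overlap, and the WT libraries were close to each other (690 ± 21.8 CPM, SD, n = 3) while the *Cldn2*KO libraries were spread widely (55.3 ± 57.2 CPM). *Igkc* was 12.5-fold lower (-3.64 on the log2 scale, SE 0.689, edgeR adjusted p 0.0208).

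*Jchain*, which joins IgA units into dimers (ENSMUSG00000067149, chromosome 5, 88519809 to 88527891, minus strand), stood at 719, 690 and 824 CPM in WT controls. In *Cldn2*KO controls it stood at 63.3, 11.4 and 84.8 CPM. The order of the *Cldn2*KO libraries was that of *Igha* and *Igkc*, with replicate 2 lowest and replicate 3 highest. *Jchain* was 14-fold lower (log2 fold change -3.81, SE 0.559, edgeR adjusted p 0.0038).

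*Mzb1* encodes a chaperone of the endoplasmic reticulum that helps plasma cells assemble antibody (ENSMUSG00000024353, chromosome 18, 35647266 to 35649367, minus strand). It stood at 8.65, 14.4 and 12.4 CPM in WT controls and at 0.739, 0.111 and 5.17 CPM in *Cldn2*KO controls. The groups did not overlap, with 5.17 CPM in the highest *Cldn2*KO and 8.65 CPM in the lowest WT library, and the difference did not pass the test (log2 fold change -2.56, SE 0.731, edgeR adjusted p 0.11). In the annotation *Mzb1* shares exon bases with *Spata24*, which is not among the counted genes, so its level is uncertain.

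**Figure D1:**
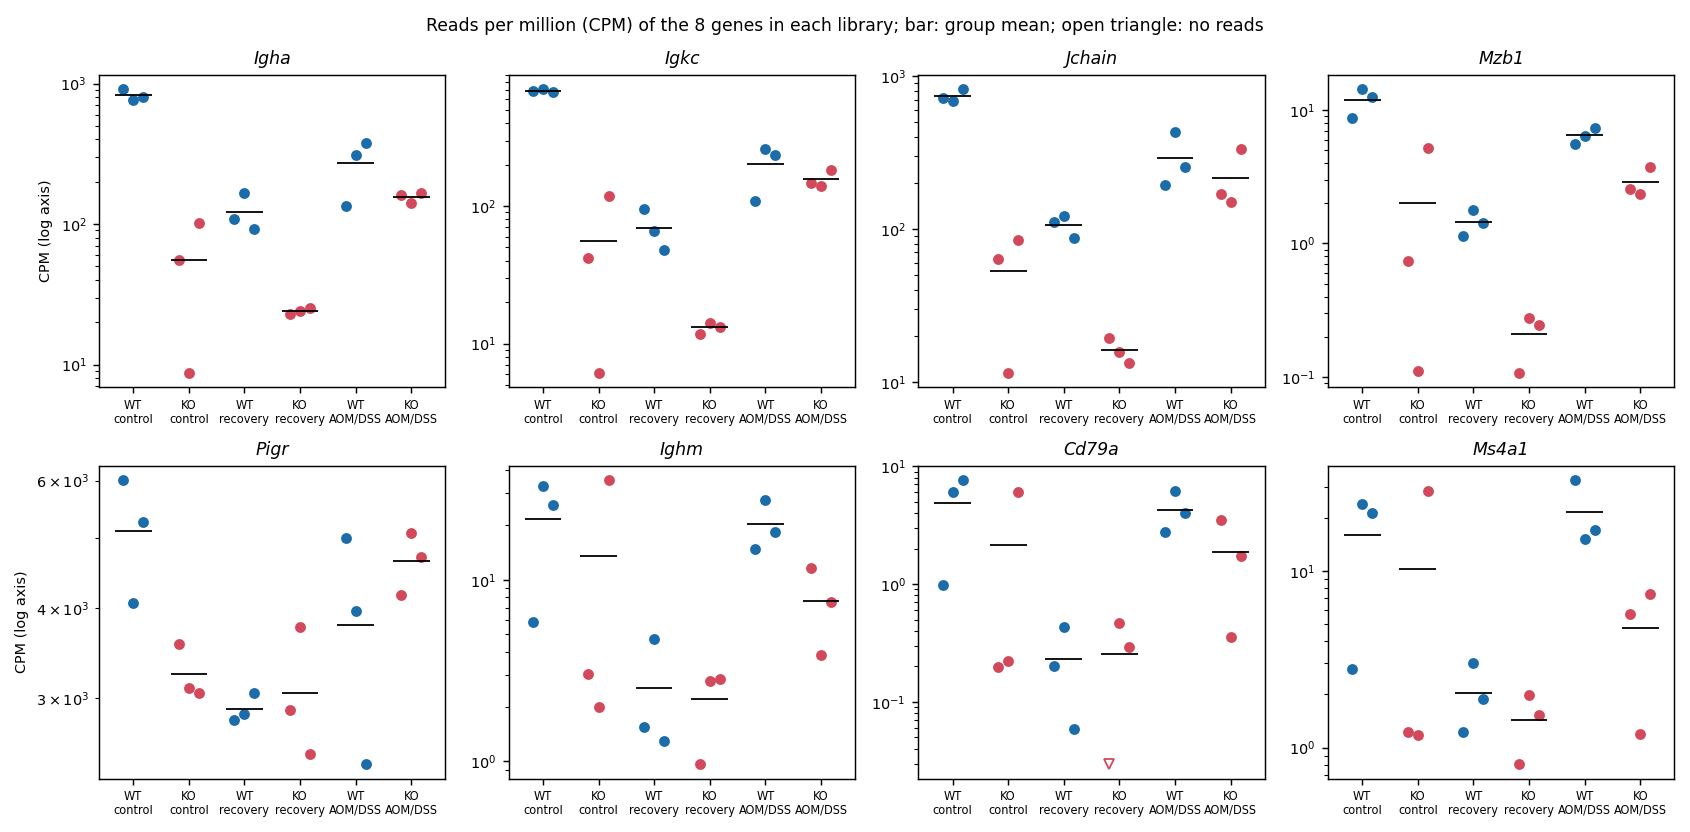
Level (CPM, log axis) of each gene in the 18 libraries, by group, with WT in blue and Cldn2KO in red. Bars are group means and the open triangle is a library with no reads. For Igha, Igkc and Jchain the 3 WT controls lie above all other libraries, while for Ighm, Cd79a and Ms4a1 the points of WT and KO controls are intermixed.

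*Pigr*, the epithelial receptor that carries IgA into the lumen (ENSMUSG00000026417, chromosome 1, 130826684 to 130852249, plus strand), stood at 6010, 4060 and 5260 CPM in WT controls and at 3560, 3100 and 3050 CPM in *Cldn2*KO controls. The groups did not overlap, with a 1.58-fold lower fitted level, and the difference did not pass the test (log2 fold change -0.66, SE 0.24, edgeR adjusted p 0.227). Measured against 8 epithelial markers in the same library, on the log2 scale, *Pigr* stood at 2.22, 1.81 and 2.06 above their mean in WT controls and at 1.71, 1.49 and 1.30 in *Cldn2*KO controls. These groups did not overlap either (difference -0.533), which 3 against 3 libraries can bring to an exact permutation p of 0.1 and no lower.

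None of the 3 genes of B cells passed the test between genotypes in the controls. *Ighm*, the IgM heavy chain (ENSMUSG00000076617, chromosome 12, 113418558 to 113422730, minus strand), stood at 5.86, 32.9 and 25.9 CPM in WT controls and at 3.01, 2 and 35.4 CPM in *Cldn2*KO controls. *Cd79a*, a signalling subunit of the B cell receptor (ENSMUSG00000003379, chromosome 7, 24897381 to 24902197, plus strand), stood at 0.983, 6.09 and 7.62 CPM in WT and at 0.197, 0.222 and 6.03 CPM in *Cldn2*KO controls. *Ms4a1*, the surface protein CD20 of B cells (ENSMUSG00000024673, chromosome 19, 11249675 to 11266241, minus strand), stood at 2.79, 24.1 and 21.2 CPM in WT and at 1.23, 1.17 and 28.4 CPM in *Cldn2*KO controls.

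All 3 genes were high in WT control replicates 2 and 3 and in *Cldn2*KO control replicate 3, and low in WT control replicate 1 and *Cldn2*KO control replicates 1 and 2. Their log2 fold changes were -0.68, -1.18 and -0.64 with standard errors of 0.893, 1.11 and 1.02 (edgeR adjusted p 0.823, 0.732 and 0.861). *Cldn2*KO control replicate 3 thus had the highest *Ms4a1* and *Ighm* of the 6 controls and yet 101 CPM of *Igha*, below the lowest WT control at 769 CPM. WT control replicate 1 had the reverse, 2.79 CPM of *Ms4a1* with 918 CPM of *Igha*.

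In the control comparison, 3 of the 8 members were called, all lower in *Cldn2*KO, against 1.05% of the 16937 genes called lower and 1.17% called in either direction. The groups did not overlap for 5 of the 8, all lower, against 10.7% of all genes. The median log2 fold change of the members was -1.87, against -0.01 over all genes tested. The calls of *Igha*, *Igkc* and *Jchain* were lost when only these 6 libraries were fitted (edgeR adjusted p up to 0.141, 0.211 and 0.101), and those of *Igha* and *Igkc* were also lost without *Cldn2*KO control replicate 1. Without filter on low counts *Igkc* lost its call as well.

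Other genes of these pathways were taken from fixed lists. Of 11 tested constant genes 4 fell in *Cldn2*KO controls and none rose: *Igha*, *Igkc*, *Ighg2c* (-6.21 on the log2 scale, SE 1.02, edgeR adjusted p 0.00697) and *Ighg1* (-3.77, edgeR adjusted p 0.0145), the last 2 encoding IgG subclasses. *Ighg2c* was read 146, 175 and 278 times in WT controls and 3, 0 and 5 times in *Cldn2*KO controls, where the absence of reads in replicate 2 allows up to 0.166 CPM. Ig constant genes are similar in sequence, and how reads with several alignments were counted was not stated, so levels of the IgG genes are uncertain.

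Of 18 tested plasma cell genes 3 fell and none rose. They were *Tnfrsf17*, the survival receptor BCMA (log2 fold change -4.20, edgeR adjusted p 0.0122), *Prdm1*, the transcription factor Blimp-1 (-2.58, edgeR adjusted p 0.0299), and *Derl3*, which serves protein quality control in the endoplasmic reticulum (-1.85, edgeR adjusted p 0.0329). *Prdm1* is also made by T cells and epithelium. Of the 18 genes 12 had log2 fold changes below 0 (median -0.44), and their summed level overlapped (1580 to 1680 CPM in *Cldn2*KO, 1510 to 1920 CPM in WT). In this list 8 genes lay apart and lower and 2 apart and higher, against 10.7% and 11.6% of all genes. The 2 higher were *Sdc1* (0.61, edgeR adjusted p 0.24) and *Creld2* (0.44, edgeR adjusted p 0.522). None of 22 B cell genes was called in controls (all 22 had log2 fold changes below 0, median -0.60), nor any of 10 germinal centre, 13 IgA induction and homing, or 11 follicle genes. Of the 14 genes of IgA transport and its regulators, *Irf1*, an interferon-induced transcription factor that acts on *Pigr*, fell (log2 fold change -0.96, edgeR adjusted p 0.0146).

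Markers of other cells moved beside these genes in the controls. Of 10 T cell markers 2 fell (*Cd8a* and *Cd3e*), all 10 had log2 fold changes below 0 (median -2.94, below the members' -1.87) and 5 lay apart and lower, and the summed level of the list was 1.83 to 12.1 CPM in *Cldn2*KO and 10.9 to 90.4 CPM in WT controls. All 8 smooth muscle markers had higher levels in every *Cldn2*KO control than in every WT control (summed 8200 to 11000 against 4080 to 6040 CPM), none of them called. Epithelial markers summed to 14100 to 16900 CPM against 15400 to 18100 CPM (median log2 fold change -0.14), and none was called. Of these 8 markers 3 lay apart and lower, *Epcam* (-0.13), *Cldn7* (-0.54) and *Vil1* (-0.68). Of 8 macrophage markers 7 had log2 fold changes below 0 (median -0.63) and 3 lay apart and lower, with a summed level of 48 to 107 CPM in *Cldn2*KO and 87.5 to 116 CPM in WT controls, and none was called. No marker on these 4 lists was at 0 reads throughout either control group. The part of these differences in the results was not tested.

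**Figure D2:**
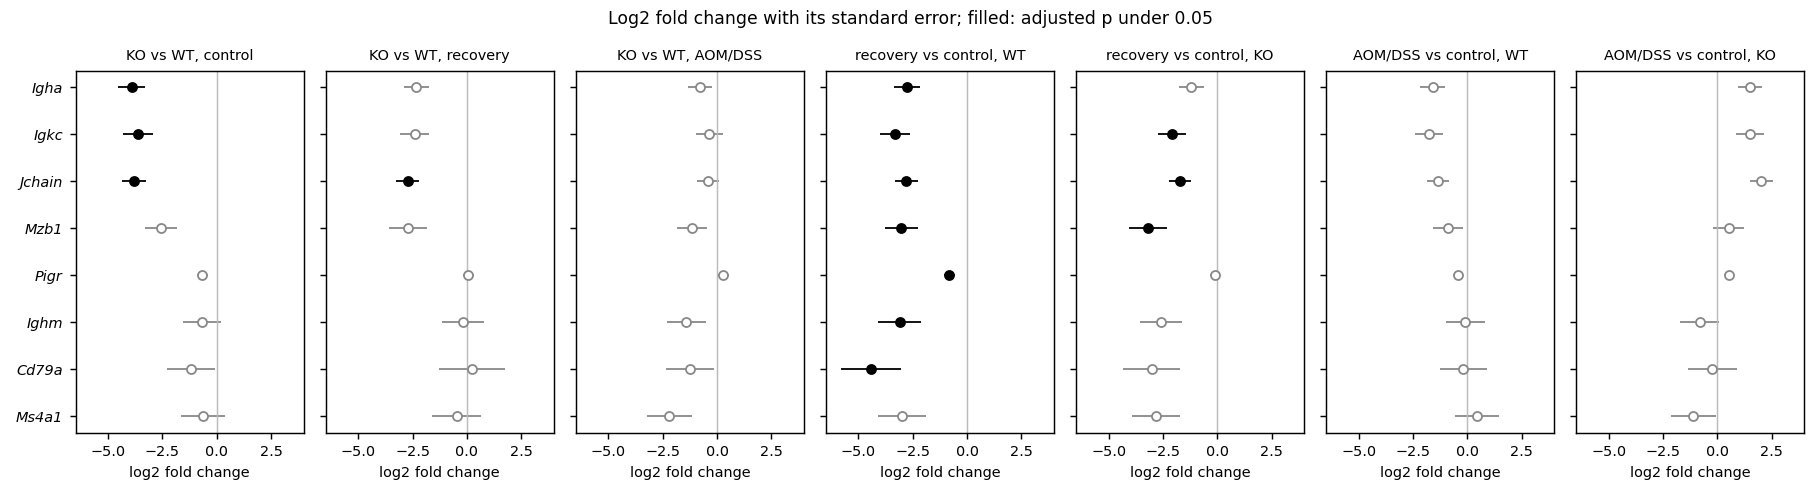
Log2 fold change (horizontal axis) of the 8 genes in each of 7 comparisons, with the standard error of the edgeR fit as bars and filled points for adjusted p under 0.05. Igha, Igkc and Jchain are filled at -3.91, -3.64 and -3.81 between genotypes in controls, open at -0.80, -0.36 and -0.43 in AOM/DSS, and on opposite sides of 0 for AOM/DSS against control in the 2 genotypes.

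The second comparison asked whether the genotypes differed during recovery. *Igha* stood at 109, 165 and 92.6 CPM in WT and at 23, 24.2 and 25.4 CPM in *Cldn2*KO recovery. *Igkc* stood at 95.1, 65.4 and 48.3 CPM in WT and at 11.8, 14.2 and 13.3 CPM in *Cldn2*KO. *Jchain* stood at 111, 122 and 86.6 CPM in WT and at 19.4, 15.7 and 13.3 CPM in *Cldn2*KO. For each of these secreted components the genotypes lay apart, and the *Cldn2*KO recovery libraries were close to one another, unlike the *Cldn2*KO controls. *Jchain* was 6.6-fold lower in *Cldn2*KO and passed the test (log2 fold change -2.72, SE 0.537, edgeR adjusted p 0.0337). *Igha* (-2.34, SE 0.576, edgeR adjusted p 0.0621) and *Igkc* (-2.41, SE 0.661, edgeR adjusted p 0.0714) did not.

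*Mzb1* stood at 1.14, 1.79 and 1.42 CPM in WT and at 0.107, 0.278 and 0.246 CPM in *Cldn2*KO recovery, the latter from 2, 6 and 5 reads. These groups also lay apart, by -2.72 on the log2 scale (SE 0.883, edgeR adjusted p 0.103). *Pigr* overlapped between genotypes, with 2800, 2850 and 3050 CPM in WT and 2890, 3760 and 2510 CPM in *Cldn2*KO (log2 fold change 0.07, SE 0.239, edgeR adjusted p 0.906). The B cell genes were low in all 6 recovery libraries, with *Ighm* between 0.964 and 4.73 CPM, *Ms4a1* between 0.803 and 3.01 CPM and *Cd79a* between 0 and 0.464 CPM. *Cd79a* had no read in *Cldn2*KO recovery replicate 1, which allows up to 0.161 CPM, and at most 10 reads in any recovery library (log2 fold change 0.22, SE 1.51, edgeR adjusted p 0.962).

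In recovery 1 of 8 members was called, lower in *Cldn2*KO, against 0.425% of all genes called lower and 0.974% in either direction. For 4 of the 8 the groups did not overlap, all lower, against 11.7% of all genes. The call of *Jchain* was lost without filter on low counts, with *Xist* as a covariate, and without WT recovery replicate 2 or 3 or *Cldn2*KO recovery replicate 2 (edgeR adjusted p up to 0.207), and DESeq2 called *Igha*, *Igkc*, *Jchain* and *Mzb1*. None of the genes in the wider lists other than members was called here. *Tnfrsf17* had 0 reads in each of the 3 *Cldn2*KO recovery libraries and 2, 4 and 3 reads in WT recovery. *Sec11c* and *Ssr4*, of the secretory machinery, stood lower by log2 values of -0.88 and -0.92 (edgeR adjusted p 0.0559 and 0.0633). Among markers of other cells, all 10 T cell markers had log2 fold changes below 0 (median -0.95, 4 apart and lower, summed 13.5 to 21.3 CPM in *Cldn2*KO and 24.7 to 80.1 CPM in WT), as did 7 of 8 macrophage markers (median -0.57, 2 apart and lower, summed at most 22.7 CPM in *Cldn2*KO against 20.1 to 28.4 CPM in WT). None of these markers was called or at 0 reads throughout a group, and their part was not tested.

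The third comparison set *Cldn2*KO against WT after AOM/DSS. *Igha* stood at 135, 309 and 376 CPM in WT and at 162, 142 and 166 CPM in *Cldn2*KO. *Igkc* stood at 109, 260 and 234 CPM in WT and at 146, 140 and 184 CPM in *Cldn2*KO, and *Jchain* at 193, 429 and 255 CPM in WT and 168, 150 and 331 CPM in *Cldn2*KO. The genotypes overlapped for all 3, with WT replicate 1 the lowest library of all 6 for *Igha* and *Igkc*. Log2 fold changes were -0.80 for *Igha* (SE 0.549), -0.36 for *Igkc* (SE 0.621) and -0.43 for *Jchain* (SE 0.5), with edgeR adjusted p of 0.882, 0.962 and 0.93.

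The genotypes lay apart after AOM/DSS for 3 members, all lower in *Cldn2*KO, against 6.38% of all genes. *Ms4a1* stood at 32.8, 15.2 and 17.2 CPM in WT and at 5.71, 1.2 and 7.43 CPM in *Cldn2*KO (log2 fold change -2.19, SE 1.05, edgeR adjusted p 0.862). *Ighm* stood at 14.8, 27.6 and 18.3 CPM in WT and at 11.6, 3.83 and 7.5 CPM in *Cldn2*KO, and *Mzb1* at 5.57, 6.35 and 7.38 CPM against 2.57, 2.34 and 3.73 CPM. *Cd79a* overlapped, with 2.76, 6.13 and 3.97 CPM in WT and 3.47, 0.357 and 1.73 CPM in *Cldn2*KO. *Pigr* overlapped as well, with 4990, 3960 and 2430 CPM in WT and 4170, 5070 and 4710 CPM in *Cldn2*KO (log2 fold change 0.29).

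None of the 8 members was called after AOM/DSS, where edgeR called 1 gene in all (0.0059% in either direction) and 949 genes had an unadjusted p under 0.05. DESeq2 also called 0 members. None of the lists held a called gene. Of 11 constant genes 6 were lower in every *Cldn2*KO library than in every WT library (median log2 fold change -1.62), as were 15 of 22 B cell genes (median -1.38) and 7 of 11 follicle genes (median -1.30), against a median of -0.00 over all genes. Of 10 T cell markers 9 had values below 0 (median -0.87), while all 8 smooth muscle markers (summed 2480 to 6300 CPM in *Cldn2*KO and 605 to 3210 CPM in WT) and all 8 epithelial markers (median 0.21, 3 apart and higher) had log2 fold changes above 0. None of these markers was called, and their part was not tested. The follicle stroma chemokine *Cxcl13*, which attracts B cells, stood at 18.5, 12.2 and 16.1 CPM in WT and at 5.71, 1.95 and 6.52 CPM in *Cldn2*KO and was singled out after its values were seen.

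The comparisons with controls that follow, and both interactions, use the control libraries of the first comparison again. In WT mice, recovery was set against control. *Igha* fell from 830 ± 78.2 CPM in controls to 122 ± 38.2 CPM in recovery (SD, n = 3; log2 fold change -2.76, edgeR adjusted p 0.00505). *Igkc* fell from 690 ± 21.8 to 69.6 ± 23.7 CPM (-3.31, edgeR adjusted p 0.00454) and *Jchain* from 744 ± 71 to 107 ± 18.3 CPM (-2.80, edgeR adjusted p 0.00302). The chaperone gene *Mzb1* fell from 11.8 ± 2.92 to 1.45 ± 0.328 CPM (-3.03, edgeR adjusted p 0.0112). These 4 genes were called under each of the 14 alternatives run for this comparison.

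*Pigr* fell 1.76-fold in WT recovery, from 5110 ± 985 to 2900 ± 132 CPM (log2 fold change -0.82, edgeR adjusted p 0.0248). Its epithelial setting moved with it, as 4 of 8 epithelial markers fell, among them *Cldn7* (-0.95), *Vil1* (-0.94) and *Krt19* (-1.09), and relative to the 8 markers *Pigr* stood at 2.03 ± 0.207 in WT controls and 1.79 ± 0.193 in WT recovery (log2, SD, n = 3), which was not tested. The call of *Pigr* held in 7 of 14 alternatives, and those of *Ighm* and *Cd79a*, described next, in 6 of 14 each. *Ighm* fell from 21.6 ± 14 to 2.53 ± 1.92 CPM (-3.11, edgeR adjusted p 0.0355) and *Cd79a* from 4.9 ± 3.48 to 0.231 ± 0.187 CPM (-4.42, edgeR adjusted p 0.0321), while *Ms4a1* overlapped between the groups (-2.99, edgeR adjusted p 0.0683).

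In all, 7 of 8 members were called lower in WT recovery, against 12.2% of all genes called lower and 22.2% in either direction, and the groups lay apart for 7, all lower, against 20.9% of genes. With *Hoxb13* class as a covariate 4 members were called. With *Xist* class as a covariate the calls of *Ighm* and *Cd79a* were lost. WT control replicate 2, the only control without *Hoxb13*, had 769 CPM of *Igha*, 714 CPM of *Igkc* and 690 CPM of *Jchain*, all above every WT recovery library. Leaving it out ended the call of *Ighm* and not those of the other 6 members.

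Of the wider lists in WT recovery, 7 of 11 constant genes fell and none rose, and 12 of 22 B cell genes fell and none rose (list median -3.59). By lowest adjusted p, not by size of change, the B cell genes named are *Ralgps2* (log2 fold change -0.71), *Bank1* (-4.34) and *Cr2* (-5.27). Of 18 plasma cell genes 6 fell, among them *Irf4* (-2.93), *Tnfrsf17* (-3.54) and *Derl3* (-1.86), and 5 rose, among them *Fkbp11* (1.99), *Txndc5* (1.08) and *Sec11c* (1.09). The first are a transcription factor, a receptor and a quality control protein of plasma cells. The last are general proteins of the secretory pathway, made by goblet and other epithelial cells too. Which cells the falls and the rises came from was not tested. Of the IgA homing genes *Itga4* (-1.51), *Cxcr4* (-2.63) and *Ccl28* (-1.47), the epithelial chemokine that attracts IgA plasma cells, fell, and *Ccl25* rose (0.81). Of the 14 genes of IgA transport and its regulators 7 fell, of 11 follicle genes 3 fell, and none of either list rose. Of 10 germinal centre genes 3 fell and 2 rose. Among all genes 12.2% were called lower and 10% higher.

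Markers of other cells fell too in WT recovery, with 7 of 8 macrophage markers (summed 20.1 to 28.4 CPM against 87.5 to 116 CPM in controls) and 4 of 8 smooth muscle markers (873 to 2410 against 4080 to 6040 CPM). The 4 Hox markers all fell. Of the T cell markers *Cd4* alone was called, and their summed level was 24.7 to 80.1 CPM in recovery and 10.9 to 90.4 CPM in controls. The part of tissue makeup in the fall of the members was not tested.

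In *Cldn2*KO mice recovery was set against controls that were already low. *Igha* moved from 55.3 ± 46.3 to 24.2 ± 1.21 CPM (SD, n = 3; log2 fold change -1.19, edgeR adjusted p 0.152). *Igkc* fell from 55.3 ± 57.2 to 13.1 ± 1.22 CPM (-2.08, edgeR adjusted p 0.0376), *Jchain* from 53.2 ± 37.8 to 16.2 ± 3.1 CPM (-1.72, edgeR adjusted p 0.031) and *Mzb1* from 2.01 ± 2.76 to 0.21 ± 0.091 CPM (-3.20, edgeR adjusted p 0.0188). *Ighm* (-2.60), *Cd79a* (-3.02) and *Ms4a1* (-2.82) were not called (edgeR adjusted p 0.0733, 0.121 and 0.0929). The groups overlapped for all 8 members, where 20.5% of all genes lay apart and lower and 19.9% apart and higher. *Cldn2*KO control replicate 2 had less *Igha*, *Igkc* and *Jchain* than any recovery library. *Pigr* stood at 3240 ± 283 and 3050 ± 640 CPM (-0.09, edgeR adjusted p 0.847). The 3 members called, all lower, compared with 10% of all genes called lower and 19.4% in either direction. With *Hoxb13* class as a covariate, or with only these 6 libraries fitted, 0 members were called by edgeR. Without *Cldn2*KO control replicate 3, the library high in B cell genes, 0 members were called, and without replicate 2 of that group 5 were. Without *Cldn2*KO recovery replicate 1 or 2 the count was also 0, and without *Cldn2*KO control replicate 1 or recovery replicate 3 it was 1. Other cells' markers moved in this comparison too: 6 of 8 macrophage markers fell (summed at most 22.7 CPM in recovery and 48 to 107 CPM in controls), as did all 8 smooth muscle markers (1010 to 1580 against 8200 to 11000 CPM) and all 4 Hox markers, of which *Hoxd12* had no reads in recovery. Of 10 T cell markers 2 rose, *Cd8a* (3.26) and *Cd3e* (3.70), with a summed level of 13.5 to 21.3 CPM in recovery and 1.83 to 12.1 CPM in controls. The part of these markers in the members' fall was not tested.

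No member passed the test for a difference between the genotypes in the response to recovery (0 of 8, against 0.13% of genes), with 0 called by DESeq2 too and 22 genes called by edgeR, 3141 genes having an unadjusted p under 0.05. The interaction was 1.57 on the log2 scale for *Igha* (SE 0.78, edgeR adjusted p 0.296) and 0.73 for *Pigr* (SE 0.339, edgeR adjusted p 0.26). The larger fall of *Igha* in WT than in *Cldn2*KO mice was therefore not established as a difference. All 10 T cell markers had interactions above 0 (median 1.51, against 0.91 for the members), and all 8 smooth muscle markers had interactions below 0 (median -1.14). None of these markers was called, and their part was not tested.

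AOM/DSS was set against control in each genotype. In WT mice *Igha* stood at 273 ± 125 CPM after AOM/DSS and 830 ± 78.2 CPM in controls (log2 fold change -1.60, SE 0.558, edgeR adjusted p 0.074), *Igkc* at 201 ± 81 and 690 ± 21.8 CPM (-1.78, edgeR adjusted p 0.0807) and *Jchain* at 292 ± 123 and 744 ± 71 CPM (-1.35, edgeR adjusted p 0.0925). In *Cldn2*KO mice *Igha* stood at 157 ± 12.9 CPM after AOM/DSS and 55.3 ± 46.3 CPM in controls (2.83-fold, SE 0.559 on the log2 scale, edgeR adjusted p 0.227), *Igkc* at 156 ± 23.6 and 55.3 ± 57.2 CPM (2.83-fold, edgeR adjusted p 0.279) and *Jchain* at 216 ± 100 and 53.2 ± 37.8 CPM (log2 fold change 2.02, edgeR adjusted p 0.117). Every WT AOM/DSS library was below every WT control for these 3 genes, and every *Cldn2*KO AOM/DSS library was above every *Cldn2*KO control.

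None of the 8 members was called in either genotype, against 10.4% of genes in WT (1761 genes) and 0.195% in *Cldn2*KO (33 genes), with unadjusted p under 0.05 for 5069 and 2573 genes. DESeq2 called *Igha*, *Igkc* and *Jchain* lower in WT and *Jchain* higher in *Cldn2*KO. The groups lay apart for 4 members in WT, all lower (the fourth was *Mzb1*), against 17.3% of genes, and for 4 in *Cldn2*KO, all higher (the fourth was *Pigr*), against 15% of genes. *Pigr* stood at 3790 ± 1290 CPM after AOM/DSS in WT (-0.43) and at 4650 ± 450 CPM in *Cldn2*KO (0.52), neither called. *Ighm*, *Cd79a* and *Ms4a1* overlapped between AOM/DSS and control in both genotypes, with log2 fold changes from -0.18 to 0.44 in WT and from -1.11 to -0.23 in *Cldn2*KO.

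The interaction between genotype and AOM/DSS was 3.10 on the log2 scale for *Igha* (SE 0.79, edgeR adjusted p 0.338), 3.28 for *Igkc* (SE 0.901, edgeR adjusted p 0.395) and 3.37 for *Jchain* (SE 0.726, edgeR adjusted p 0.298). None of the 8 members was called, against 0.0118% of genes (2 genes, with 1429 genes at an unadjusted p under 0.05). DESeq2 called all 3 of these genes (adjusted p 0.0171, 0.029 and 0.00182) and no other member. All 10 T cell markers had interactions above 0 as well (median 2.18), none of them called, and their part was not tested. The interaction of *Tnfrsf17* was 4.35 (SE 0.93, edgeR adjusted p 0.298).

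Of the wider lists in WT mice, 2 of 18 plasma cell genes fell after AOM/DSS (*Edem1*, -0.54, and *Derl3*, -1.35), where 6.58% of all genes were called lower, and *Ccl20*, the chemokine of follicle epithelium, rose (1.83, edgeR adjusted p 0.0429). Of the 14 genes of IgA transport and its regulators 3 fell: *Irf1* (-0.99), *Il17rc* (-1.35), a subunit of the IL-17 receptor, and *Rab3b* (-1.75), a vesicle protein that takes part in transcytosis. In *Cldn2*KO mice no gene of these lists was called, and *Tnfrsf17* gave 2.71 on the log2 scale (edgeR adjusted p 0.13). In WT, 3 of 8 epithelial and 2 of 8 smooth muscle markers fell beside these genes, and all 10 T cell markers had log2 fold changes below 0 (median -1.18) with none called. In *Cldn2*KO mice no marker was called, all 8 smooth muscle markers lay apart and lower (median -1.28), and 8 of 10 T cell markers had log2 fold changes above 0 (median 0.72). The part of these markers was not tested.

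Over all 6 groups *Igha* was highest in WT controls (830 CPM), followed by WT AOM/DSS (273), *Cldn2*KO AOM/DSS (157), WT recovery (122), *Cldn2*KO control (55.3) and *Cldn2*KO recovery (24.2 CPM). Only the first step of this order separated all libraries of neighbouring groups, and the other neighbours overlapped. *Pigr* had a narrow range by contrast, from group means of 2900 CPM in WT recovery to 5110 CPM in WT controls.

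The genes fell into 2 patterns of covariation across libraries, each of whose values share a library's depth and tissue makeup. On log2 CPM, *Igha* and *Igkc* had a Pearson r of 0.98 over the 18 libraries and 0.94 once group means were removed, and *Igha* and *Jchain* 0.97 and 0.88. *Ighm* and *Cd79a* had 0.98 and 0.96, and *Cd79a* and *Ms4a1* 0.93 and 0.89. Between *Igha*, *Igkc* or *Jchain* and these B cell genes the 9 values were lower, from 0.63 to 0.74 over all libraries and from 0.42 to 0.64 within groups, and *Mzb1* stood between them, at 0.84 with *Igha* and 0.78 with *Ms4a1* within groups. *Pigr* had 0.51 with *Igha* over the 18 libraries and -0.22 within groups.

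**Figure D3:**
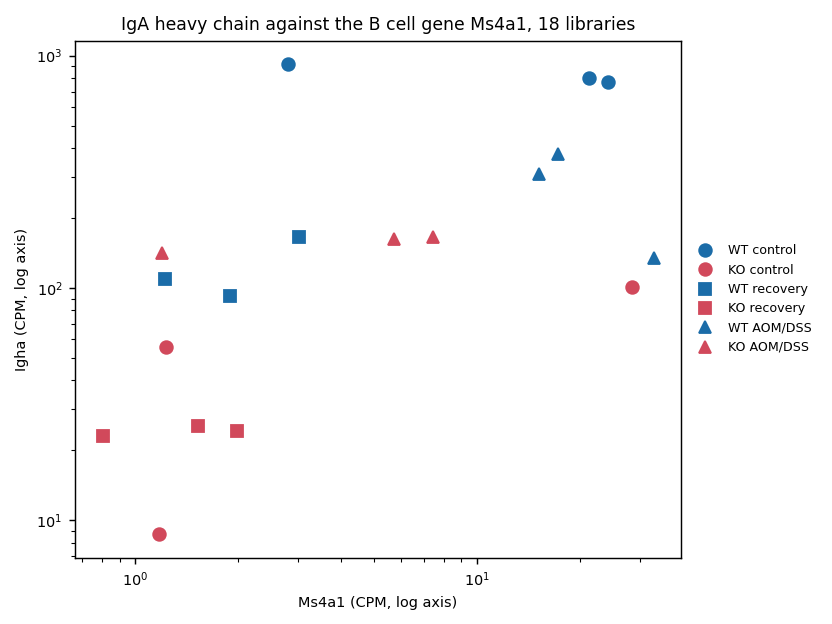
Igha (vertical, CPM, log axis) against Ms4a1 (horizontal, CPM, log axis) in the 18 libraries, with WT in blue, Cldn2KO in red and a marker shape for each treatment. The 3 WT controls share a high Igha level at Ms4a1 levels from 2.79 to 24.1 CPM, and the Cldn2KO control with 28.4 CPM of Ms4a1 has 101 CPM of Igha.

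Among the genes whose log2 CPM was most like that of *Igha* over the 18 libraries were *Jchain* (r 0.972), *Tnfrsf17* (0.945), *Mzb1* (0.944) and *Ciita* (0.911). For *Ms4a1* they were *Cxcr5* (0.965), *Cd79b* (0.961), *H2-Eb2* (0.958), *Fcrla* (0.956) and *Rubcnl* (0.956). For *Pigr* they were *Muc13* (0.882), *Serhl* (0.878), *P2rx7* (0.844), *Dglucy* (0.843) and *Chdh* (0.821). The neighbours of *Ms4a1* include known B cell genes, those of *Igha* include plasma cell genes, and *Muc13* is an epithelial mucin. The follicle gene *Cr2*, a complement receptor of B cells and follicular dendritic cells, stood at 8.45, 10.9 and 12.5 CPM in the 3 controls high in *Ms4a1* and at 0.394 to 0.708 CPM in the other 3. Whether follicles were in the sampled tissue was not tested.

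The antibody class was examined within libraries, which needs no scaling between them. *Igha* took between 62.8% and 97.1% of the reads on heavy chain constant genes in every library. In WT controls its share was 96.5%, 89.7% and 90.3%, and in *Cldn2*KO controls 92.7% (95% Wilson interval 91.1 to 94), 78.1% (71.9 to 83.3) and 62.8% (61.1 to 64.5). In the last library *Ighm* took 21.9% and *Ighd* 11%, where the same genes took 2.92% and 1.46% in WT control replicate 3. IgA was the leading class in every library, and the library with the lowest *Igha* share was the control with the most *Ms4a1*. The intervals cover counting error only.

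In recovery the *Igha* share was 97.1%, 94% and 94.7% in WT and 93.9%, 85.2% and 85.7% in *Cldn2*KO. After AOM/DSS it was 75.4%, 84.2% and 88.9% in WT and 87.9%, 95.7% and 90.1% in *Cldn2*KO. The direction of the genotype difference was not the same in the 3 treatments (-14.3, -7.05 and 8.43 percentage points). Averaged over treatments it was -4.3 percentage points and did not pass a two-sided exact permutation test within treatments (p 0.328, adjusted 0.492 over 3 such tests). Leaving out *Cldn2*KO control replicate 3 brought it to -1.79, and leaving out replicate 1 of that group to -6.77.

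**Figure D4:**
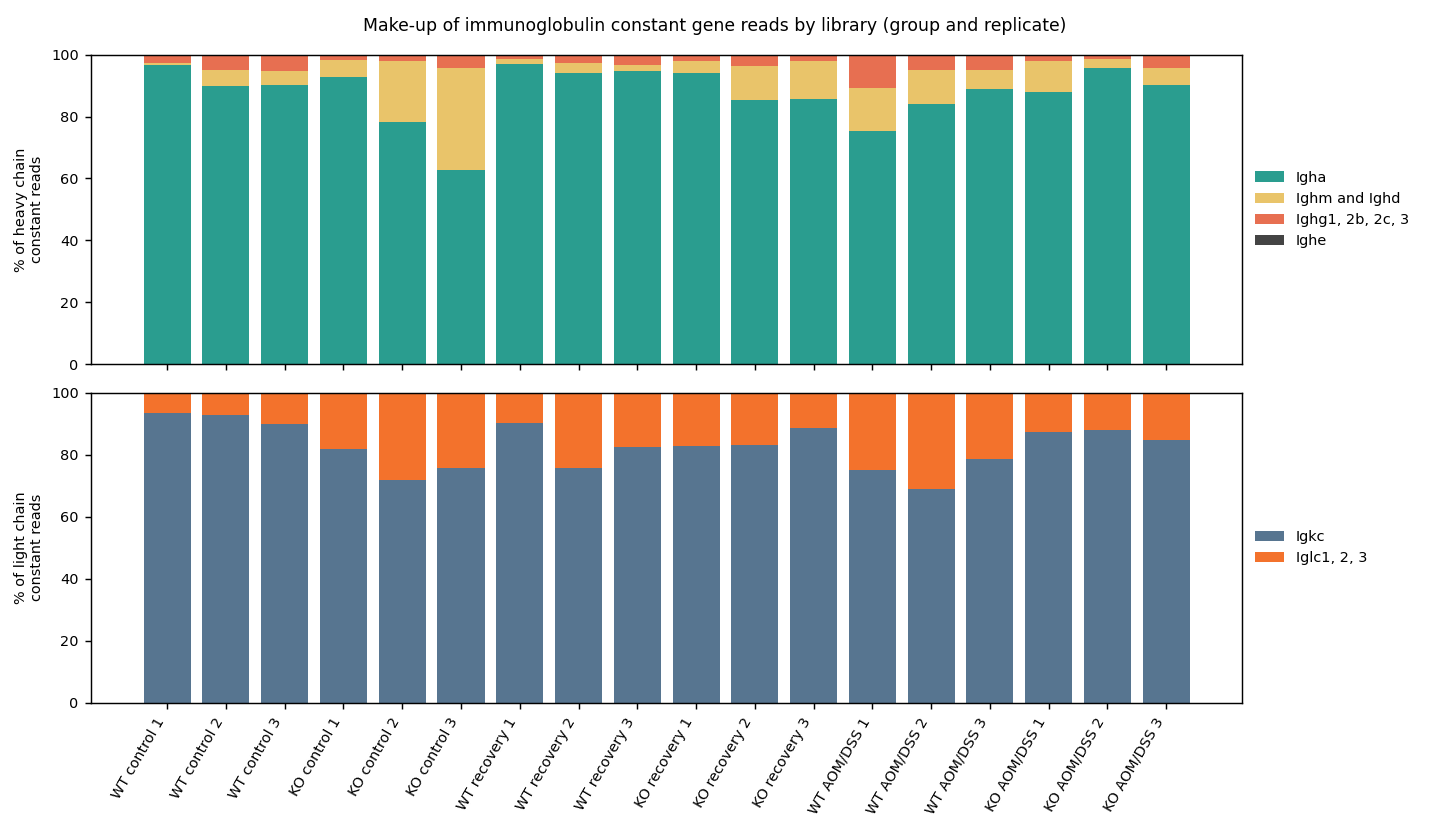
Share of reads (percent) on each class of heavy chain constant gene (upper panel) and on kappa against lambda light chain constant genes (lower panel) in each library. Igha takes most heavy chain reads in every library, with its lowest share, 62.8%, in Cldn2KO control 3, and lambda takes its largest share in WT AOM/DSS 2.

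*Igkc* took 92 ± 1.84% of light chain constant reads in WT controls and 76.5 ± 4.98% in *Cldn2*KO controls (SD, n = 3), and the groups did not overlap (exact permutation p 0.1, the smallest that 3 against 3 allows). After AOM/DSS the shares were 74.2 ± 5.08% in WT and 86.6 ± 1.68% in *Cldn2*KO, also apart and in the other direction (exact permutation p 0.1). In recovery they overlapped, with 82.9 ± 7.25% and 84.8 ± 3.24%. Over the 3 treatments the mean difference was -0.418 percentage points (exact permutation p 0.907, adjusted 0.907), and its sign depended on single libraries, with values from -1.6 (without WT recovery replicate 2) to 0.818 (without WT recovery replicate 1). In WT AOM/DSS replicate 2 the lambda gene *Iglc1* alone took 25.8% of light chain reads (24.9 to 26.7), from 2226 reads.

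For *Pigr* relative to the epithelial markers the difference between genotypes averaged -0.219 on the log2 scale over the 3 treatments (two-sided exact permutation p 0.177, adjusted 0.492). Within recovery it was -0.224 and within AOM/DSS 0.1, with overlap in both. Without WT AOM/DSS replicate 3 the average was -0.299 (exact permutation p 0.0457), so that library decides on which side of 0.05 this value falls.

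The levels of the J chain and the IgA heavy chain were also set against each other. The ratio of *Jchain* to *Igha*, per length in TPM, was 0.83, 0.951 and 1.09 in WT controls and 1.2, 1.38 and 0.887 in *Cldn2*KO controls. In recovery it was 1.08, 0.785 and 0.992 in WT and 0.897, 0.688 and 0.555 in *Cldn2*KO. After AOM/DSS it was 1.51, 1.47 and 0.718 in WT and 1.1, 1.12 and 2.12 in *Cldn2*KO. The ratio thus varied from 0.555 to 2.12 while *Igha* itself ranged from 8.71 to 918 CPM.

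Antibody variable segments were read for the same libraries, since each plasma cell clone uses 1 heavy and 1 light V segment. Closely related V segments share sequence, so a count may include reads of a neighbour and is uncertain. Kappa V segments drew 3995 to 6972 reads per WT control and 50 to 888 per *Cldn2*KO control. The leading kappa segment took 8.62% (*Igkv10-96*), 9.49% (*Igkv1-117*) and 11% (*Igkv10-96*) of them in WT controls. In *Cldn2*KO controls it took 16.5% (*Igkv10-96*, 12.9 to 20.9), 20% (*Igkv1-110*, 11.2 to 33, from 10 reads) and 5.18% (*Igkv6-23*, 3.91 to 6.84). *Cldn2*KO control replicate 3, rich in B cell genes, had the lowest leading share of all 18 libraries.

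The highest kappa share was that of *Igkv10-96* in *Cldn2*KO AOM/DSS replicate 3, at 23.5% (21.9 to 25.1) of 2659 reads. There the effective number of kappa segments, the inverse of the chance that 2 reads come from the same segment, was 11.6, against 28.8 to 35.1 in WT controls. *Igkv8-30* led in the other 2 *Cldn2*KO AOM/DSS libraries, with 13.8% and 14.4%. In WT AOM/DSS replicate 1 *Igkv1-117* took 19.5% (16.9 to 22.3). These 2 single libraries stood out within their groups, whose other leading shares were at most 14.4%.

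Of the heavy chain V segments, *Ighv1-82* had the most reads in 4 libraries, the 3 of *Cldn2*KO recovery (level with *Ighv8-12* in replicate 3) and WT control replicate 3. In *Cldn2*KO recovery it took 4 of 26, 14 of 52 and 7 of 57 reads, the second being 26.9% (16.8 to 40.3). Such few reads allow wide intervals. *Ighv3-6* led in 3 libraries, 2 of them WT recovery (level with *Ighv1-81* in replicate 2), and *Ighv1-5* in 2 WT AOM/DSS libraries. *Iglv1* led the lambda segments in all 18 libraries.

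**Figure D5:**
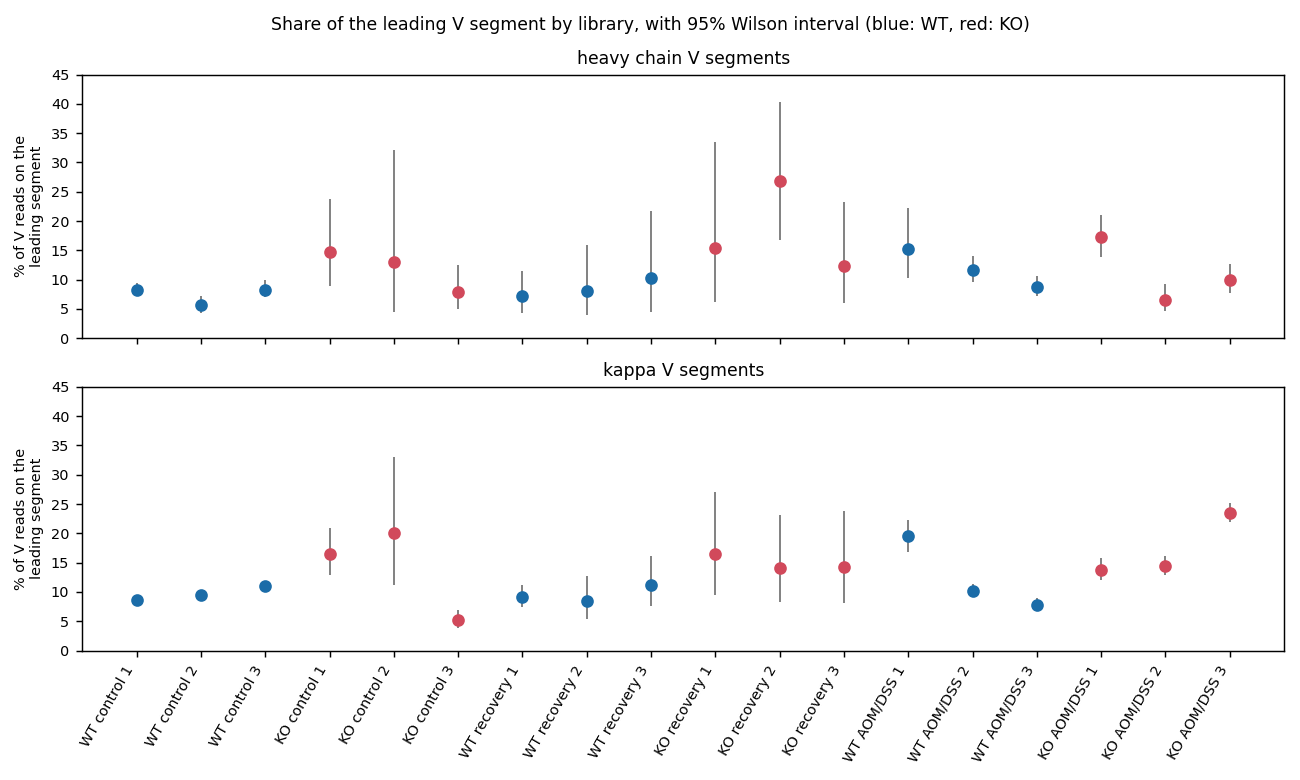
Share (percent) of V segment reads on the leading segment of each library, for heavy chain (upper panel) and kappa (lower panel) segments, with 95% Wilson intervals and WT in blue and Cldn2KO in red. Intervals are widest where few V reads were counted, as in the Cldn2KO recovery libraries, and KO AOM/DSS 3 has the highest kappa share, 23.5%.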

How the data were processed

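RNA from mouse colon was sequenced by the authors on an Illumina NovaSeq6000. The study's methods name TopHat2 and featureCounts (Subread), and the submitters' processing notes list HISAT2, featureCounts, Subread and GRCm38. Tool versions, strand settings and the treatment of multimapping reads were not given in the sources used here. The deposited values are raw read counts per gene, in 36 columns for 18 libraries on 2 lanes, and the lanes of a library, whose chi-square over its degrees of freedom was 1.08 to 1.17, were summed. Symbols came from GENCODE M21 for 47224 of 47729 genes, and the 505 others held at most 0.0735% of a library's reads. No library was a copy of another in its group (the same ratio was at least 11 over 18 pairs).

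Groups came from the genotype and treatment labels. Genes were filtered with filterByExpr (16937 kept, 30792 dropped), scaled with TMM and tested with edgeR 4.0.16 (quasi-likelihood, robust, 1 mean per group, all 18 libraries). A gene was called where its p, adjusted by Benjamini-Hochberg over all genes tested, was under 0.05. The common dispersion was 0.0993. CPM in the text are TMM-scaled, and correlations used log2 CPM with a prior count of 2. Shares and *Pigr* relative to epithelial markers were compared by exact permutation of genotype within treatments (8000 permutations, SciPy 1.17.1). A count of 0 reads was taken to allow up to 3. On simulated counts for *Cldn2*KO against WT in recovery (16709 genes, 200 changed), edgeR called 35.8% of genes changed by 1 on the log2 scale, 74.6% of those changed by 2 and 97% of those changed by 4, with 7 false calls. The changed genes had a mean above 1 CPM over all libraries, and no other group differences were simulated. The percentages therefore do not apply to levels below that, such as those of *Cd79a* in recovery.

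All 8 members are named in each comparison between genotypes and of recovery with control. Some of them are named in AOM/DSS against control and in the interactions. Of each list, up to 3 called genes per direction with the lowest adjusted p are named, or up to 2 with the lowest p where none was called, and the 5 genes most like *Igha*, *Pigr* and *Ms4a1* by Pearson r. Further genes named, among them *Cxcl13* and *Cr2* by library, were singled out after their values were seen. Some genes that this rule selects are not reported here. The members, lists and comparisons were chosen with earlier results of these data known. Alternatives were RLE size factors, scaling without immunoglobulin genes, no filter, DESeq2 1.42.0, only the groups compared, *Hoxb13* (10 CPM) or *Xist* (100 CPM) class as covariate, a replicate block, and each library left out in turn. Depth was 17.6 to 27.4 M reads per library.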

Additional observations from a re-analysis of the deposited data

Results flagged for a closer look

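For *Igha*, *Igkc* and *Jchain*, AOM/DSS libraries lay below the controls in all 3 WT libraries and above the controls in all 3 *Cldn2*KO libraries. The difference between the genotypes in this response was 3.10, 3.28 and 3.37 on the log2 scale. It did not pass the edgeR test (adjusted p 0.338, 0.395 and 0.298) and passed that of DESeq2 (0.0171, 0.029 and 0.00182). Of 10 T cell markers, all 10 had log2 fold changes below 0 in WT (median -1.18) and 8 had values above 0 in *Cldn2*KO (median 0.72), and their part was not tested. The *Cldn2*KO controls in this comparison are those whose 3 libraries ranged from 8.71 to 101 CPM of *Igha*. *Xist* was high in some *Cldn2*KO AOM/DSS libraries and in no others compared here. With *Xist* class as a covariate edgeR called no member for this difference.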

How the results depend on the processing

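The count of called members was 3 in *Cldn2*KO against WT controls, 0 when only those groups were fitted, and 1 to 4 with a library left out. In recovery it was 1, becoming 0 with no filter, 2 with the *Hoxb13* covariate, 0 with the *Xist* covariate, 3 with only these groups, 4 with DESeq2, and 0 to 1 with a library left out. In WT recovery against control it was 7, then 4 with the *Hoxb13* covariate and 4 to 6 with a library left out (4 without WT control replicate 3, WT recovery replicate 1 or WT recovery replicate 3). In *Cldn2*KO recovery against control it was 3, becoming 1 with no filter, 0 with *Hoxb13*, 1 with *Xist*, 0 with only these groups, 6 with DESeq2, and 0 to 5 with a library left out. For AOM/DSS against control, DESeq2 called 3 members in WT and 1 in *Cldn2*KO, and 3 for the interaction with genotype, where edgeR called 0. *Pigr* relative to epithelial markers, -0.219 over treatments, ranged from -0.299 (without WT AOM/DSS replicate 3) to -0.143 (without *Cldn2*KO recovery replicate 3).

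The titles of the control libraries carry replicate numbers. Libraries with the same number correlated by 0.157, 0.00234 and 0.0794 in their deviations from group means, and those with different numbers by -0.168 to 0.0803. With so few libraries a group, these values cannot show whether the numbers pair them. With the replicate block, 1 member was called in *Cldn2*KO recovery against control, and the other counts of members stayed within 1.5 times. The causes of these shifts were not tested. No result changed its direction while called. Among the counts of called members and the 3 genotype averages of shares and of *Pigr*, 166 values stayed as reported, 29 moved and 1 gained a call. Among values of single genes and of V segment diversity, 1005 kept their side of the threshold or moved within the spread, 58 lost a call, 22 gained one and 3 moved by more than the spread. Over all genes the count of calls ranged from 25 to 688 in controls, 3 to 1351 in recovery and 1 to 4 in AOM/DSS between genotypes, 1477 to 4592 and 133 to 4041 for recovery against control in WT and *Cldn2*KO, 7 to 3033 and 3 to 920 for AOM/DSS against control, and 0 to 877 and 0 to 87 for the interactions.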
